A study of Mus musculus with 9 samples.

Results

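The transcripts described here are the R-spondin receptor gene Lgr4 and 8 genes that act with it at the entry to the Wnt pathway, namely Znrf3, Fzd1, Fzd2, Fzd7, Lrp5, Lrp6, Ctnnb1 and Axin2. They are 9 of the 25655 genes in the deposited table and were taken by gene name. The list was drawn up with the changes from control in these same libraries known. For these genes every comparison below, with the control or between the siRNAs, is therefore a description of values. No p-value is printed for them, and any call named for them is background and not support. RNA was sequenced from immortalized mouse podocytes, a conditionally growing line derived from the filtering epithelial cell of the kidney glomerulus, which per the labels grew at 33 °C and differentiated at 37 °C for 10 to 14 days. One group received a negative control siRNA (NC), the second received siRNA 1 against Usp40 (s105625) and the third received siRNA 2 against Usp40 (s105626). Usp40 encodes a deubiquitinase, an enzyme that takes ubiquitin off other proteins. RNA was taken 48 h after transfection. The labels give 3 biological replicate libraries to each group of this 1 cell line without stating that the cultures were separate, so the spread between libraries, which all p-values measure, may be technical.

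Wnt proteins bind a Frizzled receptor together with the co-receptor LRP5 or LRP6, and this stops the destruction of beta-catenin, which then enters the nucleus and switches on target genes with TCF and LEF factors. ZNRF3 is a membrane ubiquitin ligase that clears Frizzled and LRP6 from the cell surface. LGR4 binds R-spondins and, in doing so, removes ZNRF3 from the membrane, which leaves more Wnt receptors in place. In kidney, sustained beta-catenin activity in podocytes has been linked to injury of the filter.

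The libraries held 9786270 to 13675426 gene counts, and 11800 genes had enough counts to be tested. Between replicates, the chi-square of the counts per degree of freedom was 16.4 and 19.1 for control replicate 1 against the other controls, which stood at 7.39 against each other, and 3.26 to 13.3 within the siRNA groups. Levels of a gene across libraries are given as CPM, read counts relative to the TMM-scaled library size, and levels of different genes are compared as TPM, which also divides by transcript length. Usp40 itself stood at 31.8, 33.8 and 40.9 CPM in the control libraries, at 14.7, 15.6 and 16.9 CPM with siRNA 1, and at 19.2, 17.3 and 21.2 CPM with siRNA 2, so all 6 libraries labelled as silenced lay below all 3 controls. Of the podocyte markers, Cd2ap, Actn4, Synpo and Podxl had 4066 to 56934 counts over the 9 libraries, whereas Nphs1 of the slit diaphragm had 2. The transcription factor genes Lmx1b (13) and Wt1 (40) were near the floor as well. No read fell on Tcf21 or Ptpro, a result that leaves room for 0.0283 CPM at most over the 9 libraries (3 counts, for counting error only). Of 7 tubular and parietal genes, Pax8, Aqp1, Krt8, Lrp2 and Cldn1 had 6236 to 25815 counts, but Krt18 had 2 and Slc12a1 had 4. The 7 summed to 656 to 763 TPM over all libraries with overlapping groups. The 5 endothelial markers summed to 1.21 to 2.01 TPM in controls, 2.11 to 2.99 TPM with siRNA 1 and 2.72 to 3.42 TPM with siRNA 2, by counts almost all of it Flt1, and the 4 immune markers to 13.4 to 23.7, 24.1 to 26.1 and 26.1 to 27.6 TPM, all of it from Cd68 and Ptprc with Adgre1 and Cd3e at 0. The 5 mesangial markers summed to 21.6 to 26.7, 23.5 to 26.4 and 28.3 to 33.1 TPM. The part of these markers in the values below was not tested, and in bulk RNA fewer cells of a type and less RNA per cell cannot be told apart.

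In the control libraries Ctnnb1 was the most abundant of the 9 genes per transcript length, at 354 ± 11.0 TPM (SD, n = 3). Lgr4 followed at 66.6 ± 2.48 TPM, and its libraries overlapped neither those of Ctnnb1 above it nor those of Fzd7 below it. Fzd7 at 39.8 ± 5.26 TPM, Lrp5 at 37.4 ± 8.72, Lrp6 at 28.01 ± 2.79, Fzd2 at 26.4 ± 3.06 and Fzd1 at 21.9 ± 3.37 TPM formed a run in which each gene's libraries overlapped those of the next. Znrf3 lay apart below them at 5.99 ± 0.427 TPM. Axin2 came last at 0.426 ± 0.146 TPM. The order was the same by RPKM. Ranked among all genes of the table by control TPM, Ctnnb1 was number 398, Lgr4 number 2805, Znrf3 number 9598 and Axin2 number 12025. The ligase gene was thus far lower per length than Lgr4 or any of the Frizzled and co-receptor genes listed.

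**Figure D1:**
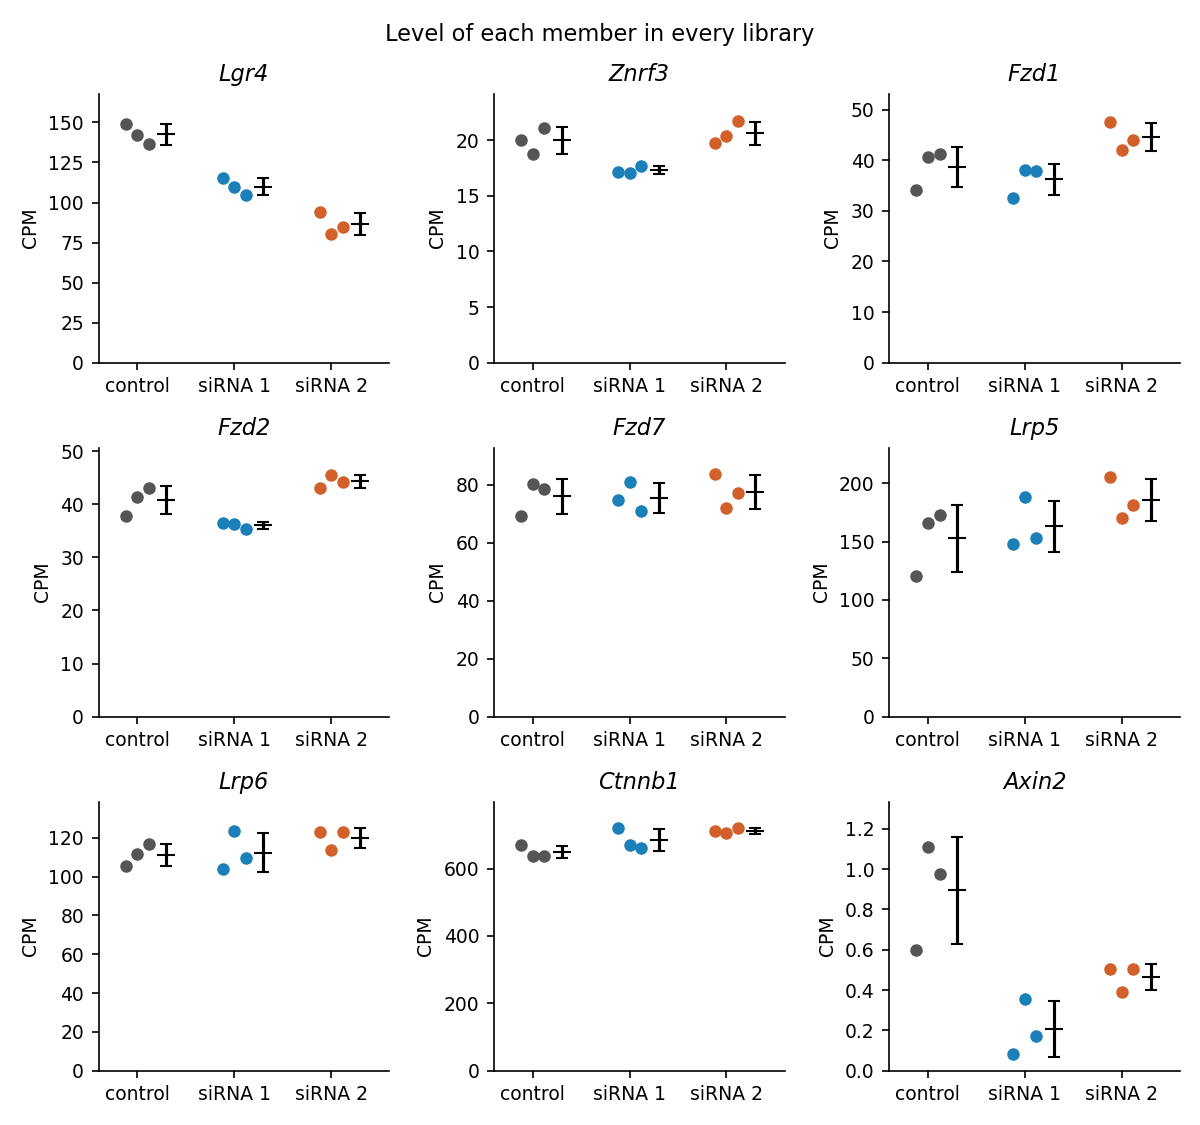
Each panel plots 1 gene's level in CPM, from 0, with a point for each of the 3 libraries of the control, siRNA 1 and siRNA 2 groups and a black mark for the mean with its SD. Lgr4 and Axin2 are the genes whose siRNA libraries all lie below the controls with both siRNAs. The share of all genes for which this held was not taken, and nothing is read from it. Fzd2 lies below the controls with siRNA 1 and at or above them with siRNA 2.

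Lgr4, the R-spondin receptor, was lower with both siRNAs, and lower with siRNA 2 than with siRNA 1. The gene (ENSMUSG00000050199) spans 109747992 to 109844602 on the plus strand of chromosome 2 in GRCm39, and 11905 of the counts of all libraries fell on it. In the control libraries it stood at 149, 142 and 136 CPM. With siRNA 1 it stood at 115, 110 and 105 CPM, and with siRNA 2 at 94.1, 80.6 and 84.6 CPM. The 3 groups formed 3 steps with no overlap between any of them, and within a group the libraries lay close together. The group means were 143 ± 6.43, 110 ± 5.11 and 86.4 ± 6.92 CPM (SD, n = 3), so siRNA 1 left 77.1% and siRNA 2 left 60.6% of the control level. On the log2 scale the fitted difference from control was -0.38 with siRNA 1 (SE 0.0749) and -0.72 with siRNA 2 (SE 0.0756). Both comparisons use the same 3 control libraries. Over the 9 ways of leaving out 1 library the first stayed between -0.41 and -0.34 and the second between -0.79 and -0.68. Without control replicate 1 they were -0.34 and -0.69.

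Lgr4 and Axin2 were the members whose libraries lay below all controls with both siRNAs in CPM. The share of all genes for which this held was not taken, and nothing is read from it. The upstream sequence of Lgr4 is shown with that of Axin2 because of this pattern alone. Both are the 250 bases before the annotated start from RefSeq (GRCm38.p6, plus strand), at chr2:109917397-109917646 for Lgr4 and chr11:108920099-108920348 for Axin2, and capitals mark each CCAAT, the letters of the CCAAT box bound by NF-Y.
Lgr4: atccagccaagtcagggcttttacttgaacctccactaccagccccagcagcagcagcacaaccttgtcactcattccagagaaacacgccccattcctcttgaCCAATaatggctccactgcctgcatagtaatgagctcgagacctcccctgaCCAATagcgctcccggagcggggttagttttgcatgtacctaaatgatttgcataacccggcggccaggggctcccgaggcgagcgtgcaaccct
Axin2: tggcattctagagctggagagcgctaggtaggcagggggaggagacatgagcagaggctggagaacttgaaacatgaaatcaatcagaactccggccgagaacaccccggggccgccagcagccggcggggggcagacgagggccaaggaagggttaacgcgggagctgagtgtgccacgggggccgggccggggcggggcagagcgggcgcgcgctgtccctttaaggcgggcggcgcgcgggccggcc
Lgr4 held CCAAT at 146 and at 95 bases before its start, whereas Axin2 held neither CCAAT nor its reverse complement ATTGG. Of 32851 promoter windows of this length, 33.8% held one of the pair. The TCF and LEF core letters TCAAAG, or CTTTGA on the other strand, were in neither window, against 13.8% of all windows. RefSeq windows were matched for 5 of the 9 genes. Among the other 3 matched genes, Fzd1 held TCAAAG at 242 bases before its start, and Fzd7 and 1 of the windows of Ctnnb1 held the CCAAT letters on either strand at 2 places each. These are matches of letters in a short window and say nothing of binding.

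Znrf3, the ligase that LGR4 opposes, was lower than control with siRNA 1 but not with siRNA 2. The gene (ENSMUSG00000041961, chromosome 11, 5226324 to 5394847, minus strand) stood at 20.04, 18.8 and 21.1 CPM in controls and at 17.2, 17.1 and 17.7 CPM with siRNA 1. With siRNA 2 it stood at 19.8, 20.4 and 21.8 CPM, within or just above the control range. The siRNA 1 libraries lay below both other groups, at 86.7% of the control mean, by a margin of about 1 CPM. The log2 difference from control was -0.21 (SE 0.0852) with siRNA 1 and 0.05 (SE 0.0833) with siRNA 2. The siRNA 2 value changed sign, to -0.11, when a trend of counts with transcript length was removed from each library. That trend was taken from each library's deviation from the mean of all 9, so removing it may also remove part of a response to the siRNA. Rnf43, the gene of the partner ligase of ZNRF3 and not among the 9 genes, had 329 counts over all libraries.

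The Frizzled receptors, which bind Wnt proteins at the surface, had fitted log2 differences from control of -0.18 to -0.01 with siRNA 1 and 0.03 to 0.20 with siRNA 2, and with the length trend removed Fzd7 turned to -0.03 with siRNA 2. Whether the 3 genes differed from each other in this was not tested. Fzd2 (ENSMUSG00000050288, chromosome 11, 102495222 to 102498884, plus strand) stood at 37.9, 41.5 and 43.1 CPM in controls and at 36.4, 36.3 and 35.4 CPM with siRNA 1. With siRNA 2 it stood at 43.1, 45.6 and 44.3 CPM. All siRNA 1 libraries lay below the controls and all siRNA 2 libraries above them, although the highest control and the lowest siRNA 2 library round to the same value. The means were 88.3% and 109% of control, with log2 differences of -0.18 (SE 0.0740) and 0.12 (SE 0.0728).

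Fzd1 (ENSMUSG00000044674, chromosome 5, 4803839 to 4808035, minus strand) stood at 34.2, 40.7 and 41.3 CPM in controls, 32.6, 38.0 and 37.9 CPM with siRNA 1, and 47.6, 42.0 and 44.0 CPM with siRNA 2. The siRNA 2 libraries were the highest of the 9, while the siRNA 1 libraries overlapped the controls. Its log2 differences from control were -0.10 (SE 0.0972) and 0.20 (SE 0.0957). Fzd7 (ENSMUSG00000041075, chromosome 1, 59521583 to 59526114, plus strand) was the most abundant Frizzled of the 9 genes, with 69.2 to 80.1 CPM in controls, 70.8 to 81.1 CPM with siRNA 1 and 71.9 to 83.7 CPM with siRNA 2. Its 3 groups overlapped, and its log2 differences from control were -0.01 (SE 0.0862) and 0.03 (SE 0.0860). Fzd1, Fzd2 and Fzd7 are close relatives, but of the words of 36 bases, the read length, in their longest GENCODE transcripts only 0.769%, 0.662% and 0.356% also occurred in another gene, in each case in another of these Frizzleds. The share was 1.52% for Lrp5, 0.268% for Znrf3 and 0 for the other 4 members.

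The co-receptors Lrp5 and Lrp6, which bind Wnt together with a Frizzled, had overlapping groups throughout. Lrp5 (ENSMUSG00000024913, chromosome 19, 3634828 to 3736564, minus strand) stood at 120, 166 and 173 CPM in controls, 148, 188 and 153 CPM with siRNA 1 and 205, 170 and 181 CPM with siRNA 2. It varied most within groups of the 8 genes with enough counts, with a pooled SD of 0.213 on the log2 CPM scale against 0.0468 for Ctnnb1. Control replicate 1 was its lowest library by far. Its log2 difference from control was 0.09 (SE 0.136) with siRNA 1 and 0.28 (SE 0.135) with siRNA 2, and the latter was 0.13 without control replicate 1 and 0.09 with the length trend removed. That trend differed between libraries, since the Spearman correlation across genes between a library's deviation and transcript length was -0.54, -0.09 and 0.10 in the controls, -0.39, 0.46 and -0.23 with siRNA 1 and 0.29, 0.16 and 0.44 with siRNA 2. As all siRNA 2 libraries had positive values, the trend and a response to siRNA 2 cannot be told apart. Lrp6 (ENSMUSG00000030201, chromosome 6, 134423439 to 134543928, minus strand) stood at 106, 112 and 117 CPM in controls, 104, 124 and 110 CPM with siRNA 1 and 123, 114 and 123 CPM with siRNA 2. Its log2 differences were 0.01 (SE 0.0786) and 0.11 (SE 0.0784), and with the length trend removed the second was -0.09. Both co-receptors have long transcripts, the longest annotated ones being 8893 and 9704 bases.

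Ctnnb1, which encodes beta-catenin, the protein that carries the signal to the nucleus, was the member with the smallest spread within groups. The gene (ENSMUSG00000006932, chromosome 9, 120758282 to 120789573, plus strand) stood at 671, 639 and 638 CPM in controls, 722, 670 and 662 CPM with siRNA 1 and 711, 705 and 720 CPM with siRNA 2. The siRNA 2 libraries all lay above the controls, at 110% of their mean, and the siRNA 1 libraries overlapped them. The log2 differences were 0.08 (SE 0.0649) and 0.13 (SE 0.0649). On its other strand Ctnnb1 overlaps Ulk4 over 5157 bases, and Ulk4 had 1002 counts against 72406 for Ctnnb1. The library kit kept the strand, and the sources used here do not give whether counting used it.

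Axin2, a direct target of beta-catenin whose product acts back to degrade it, was near the limit of detection. The gene (ENSMUSG00000000142, chromosome 11, 108811175 to 108841609, plus strand) had 7, 12 and 12 counts in controls, 1, 4 and 2 with siRNA 1 and 5, 5 and 7 with siRNA 2, or 55 in all. It was therefore the 1 member that did not pass the filter on low counts. In CPM the controls stood at 0.5996, 1.11 and 0.975, siRNA 1 at 0.0849, 0.358 and 0.172, and siRNA 2 at 0.504, 0.389 and 0.503. All siRNA 1 libraries were the lowest, the siRNA 2 libraries lay between, and no groups overlapped in CPM. Fitted with no filter, the log2 difference from control was -2.09 (SE 0.552) with siRNA 1 and -0.94 (SE 0.465) with siRNA 2. In the authors' deposited table the log2 ratio of control to siRNA was 2.09 and 0.94 for the same pairs. Without control replicate 1, or without any 1 siRNA library, Axin2 passed the filter, and its difference with siRNA 1 ranged from -2.70 to -1.72. In fits run here, the average of both siRNAs called Axin2 lower with no filter, without control replicate 1 and without siRNA 1 replicate 2. With siRNA 1 alone it was called without control replicate 1. No other fit against control run here that held Axin2 called it. The authors' deposited comparison, not run here, had an FDR p-value under 0.05 with siRNA 1 but not with siRNA 2. As Axin2 was chosen on these contrasts, nothing is read from these calls, and at 1 to 12 counts a library a difference of a few reads moves its values.

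**Figure D2:**
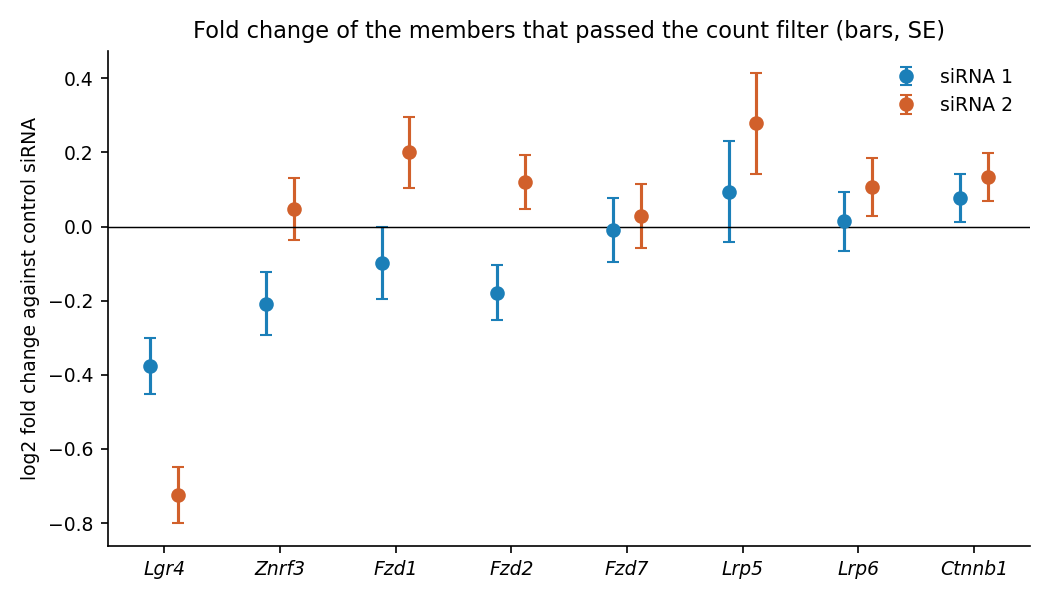
Points give the log2 fold change against the control siRNA of the 8 genes that passed the count filter, for siRNA 1 and siRNA 2, and bars give the SE. Lgr4 stands below 0 with both siRNAs, at -0.38 and -0.72, and each of the other 7 lies between -0.21 and 0.28.

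The counts of calls against control are given only as a background, since these contrasts chose the genes. The threshold for a call was 0.05 on the p-value of edgeR's quasi-likelihood test, adjusted over all tested genes. With siRNA 1, 1 of the 8 tested members was called, Lgr4, against 1.65% of all tested genes (0.627% higher and 1.03% lower). With siRNA 2 it was again Lgr4 alone, against 16.2% of all genes (7.81% higher and 8.4% lower). In the average of both siRNAs it was Lgr4 as well, against 7.32% (3.04% higher and 4.28% lower). Nothing is read from these counts. The siRNA 1 call of Lgr4 was lost when control replicate 2, siRNA 1 replicate 2, siRNA 1 replicate 3 or siRNA 2 replicate 3 was left out, although its difference stayed between -0.38 and -0.34 in these fits. The median log2 difference over the 8 members was -0.05 with siRNA 1 and 0.11 with siRNA 2, beside 0.01 and -0.01 over all tested genes. Of groups that did not overlap in CPM, 3 of the 8 genes lay below control with siRNA 1, where 8.65% of all genes did, and with siRNA 2 3 lay above and 1 below, where 19.5% and 19.1% of all genes did.

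The siRNAs were then set against each other, which asks whether the members responded alike to the reagents. This contrast is the difference of the same changes by which the genes were chosen, so its values too are a description. Lgr4 was 0.35 log2 units higher with siRNA 1 than with siRNA 2 (SE 0.0758), with all 3 siRNA 1 libraries above all 3 siRNA 2 libraries. Fzd2 was lower with siRNA 1 (-0.30, SE 0.0734), again with no overlap. These were the 2 of 8 members that edgeR called, where 6.74% of all tested genes were called, 4.25% as higher and 2.49% as lower with siRNA 1, and nothing is read from that count.

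Both calls depended on single libraries. The Lgr4 difference ranged from 0.30 to 0.41 and lost its call without siRNA 1 replicate 1, siRNA 2 replicate 2 or siRNA 2 replicate 3. The Fzd2 call was lost without any 1 of the 6 siRNA libraries, while its difference kept between -0.32 and -0.28. Fzd1 (-0.30, SE 0.0962) and Znrf3 (-0.26, SE 0.0846) also had all siRNA 1 libraries below all siRNA 2 libraries but were not called. Fzd1 was called without control replicate 1 and with the length trend removed. In all, 1 of the 8 members lay above and 3 below without overlap, where 15.6% and 15.3% of all tested genes did. Nothing is read from that count either. The other differences were -0.18 for Lrp5 (SE 0.135), -0.09 for Lrp6 (SE 0.0784), -0.06 for Ctnnb1 (SE 0.0648) and -0.04 for Fzd7 (SE 0.0861), none of them called. Usp40 itself stood at 15.7 ± 1.09 CPM with siRNA 1 and 19.2 ± 1.96 CPM with siRNA 2 (SD, n = 3).

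**Figure D3:**
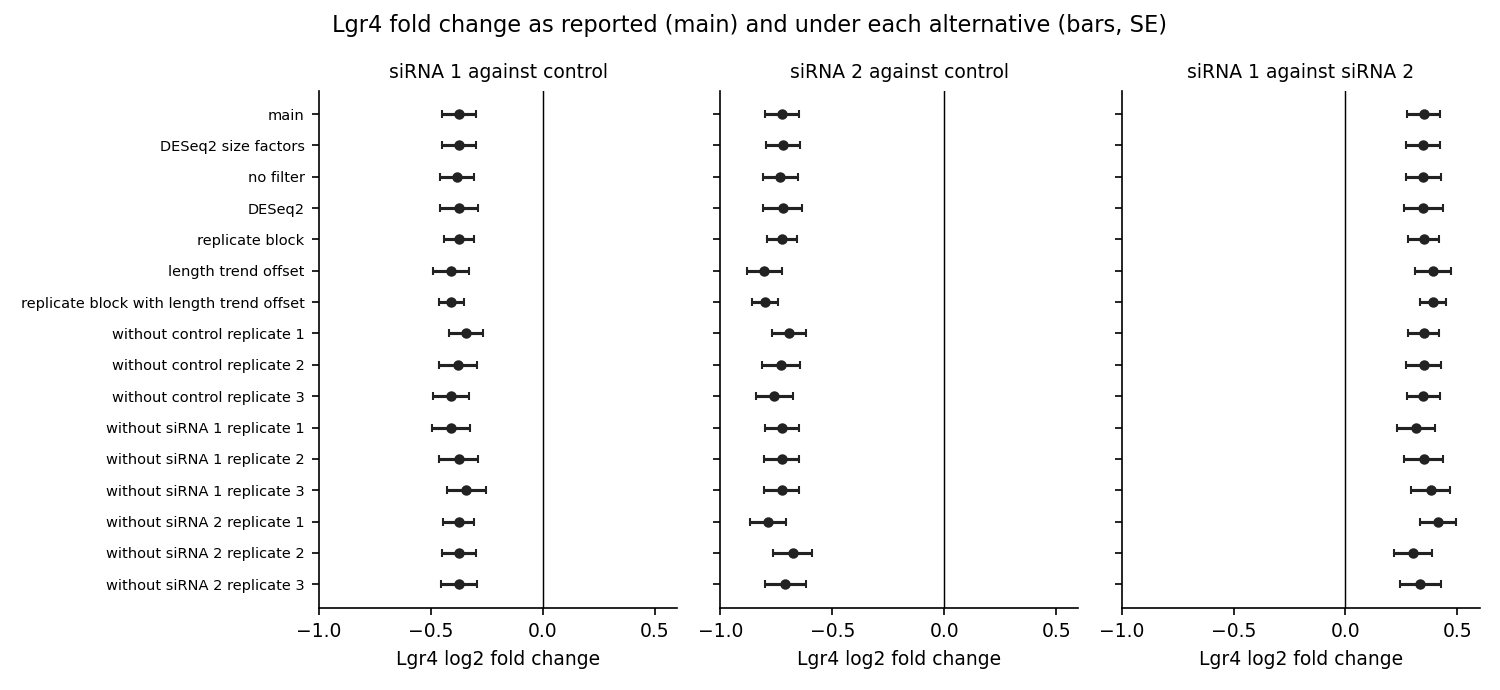
Each point is the log2 fold change of Lgr4 in 1 of 3 contrasts, as reported (main) and under each of 15 alternative fits, with its SE as the bar. The siRNA 1 values run from -0.41 to -0.34, the siRNA 2 values from -0.80 to -0.68 and the difference between the siRNAs from 0.30 to 0.41.

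To place Lgr4 among all genes, its log2 CPM was correlated over the 9 libraries with that of each of 11030 genes with a mean of at least 2 CPM. The 5 most similar genes were Akirin1 (Pearson r = 0.980), Nmt2 (0.977), Ppp2r5a (0.976), Bpnt2 (0.975) and Ero1a (0.970). Akirin1, a nuclear protein gene, stood at 69.7 to 74.4 CPM in controls, 53.1 to 54.9 with siRNA 1 and 36.9 to 41.5 with siRNA 2, with log2 differences of -0.41 and -0.88. Ero1a, which encodes an oxidase of the endoplasmic reticulum, had log2 differences of -0.42 and -1.12. Nmt2, an N-myristoyltransferase gene, had -0.20 and -0.61. Bpnt2, a nucleotide phosphatase gene, had -0.15 and -0.26, and Ppp2r5a, a regulatory subunit of protein phosphatase 2A, -0.12 and -0.19. All 5 share the 3 steps of Lgr4, and they were picked for it from all genes compared, over few libraries. The other 7 members with enough counts correlated negatively with Lgr4, from -0.06 for Fzd7 to -0.72 for Ctnnb1. The share of all compared genes with a negative correlation was not taken. These values also follow the changes by which the members were chosen, so nothing is read from their sign.

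The surroundings of Lgr4 in the pathway were read from a list of 106 other Wnt genes, of which 68 had enough counts to be tested. This list too was drawn up with earlier results of these data known. The counts of calls and the p-values of its genes below are therefore a description and no independent test. Nothing is read from their share beside that of all tested genes. R-spondins, the ligands of LGR4, were at the floor, since Rspo1, Rspo3 and the alternative ligand Ndp had 0 counts and Rspo2 and Rspo4 had 1 each. Of its sister receptors, Lgr5 had 2 counts and Lgr6 926, the latter at 7.68 to 8.62 CPM in controls, 8.69 to 10.1 with siRNA 1 and 7.62 to 9.38 with siRNA 2. Per length, Lgr6 stood at 2.79 to 3.09 TPM in controls beside 65.1 to 69.5 TPM for Lgr4, so Lgr4 held nearly all transcripts of this receptor family. The most abundant tested gene of each further role in control libraries was Wnt4 among ligands (19.1 TPM), the Wnt carrier Wls (316 TPM), Fzd6 among all Frizzleds (69.9 TPM), Ryk among co-receptors and other Wnt-binding receptors (90.8 TPM), Dkk3 among secreted and surface inhibitors (39.0 TPM), Pygo2 among nuclear partners (81.3 TPM) and Myc among targets (43.4 TPM).

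With siRNA 1, 3 of the 68 rose and 1 fell, beside the 1.65% of all tested genes given above, and the median log2 difference was 0.02 beside 0.01 over all tested genes. With the length trend removed it turned to -0.01. Ryk, a Wnt receptor with an inactive kinase domain, stood at 127, 133 and 116 CPM in controls and at 169, 169 and 176 CPM with siRNA 1 (log2 0.45, SE 0.0683, edgeR adjusted p = 0.00699). Reck, a surface protein that helps Wnt7 signal, fell from 5.65, 6.66 and 5.61 CPM to 3.74, 2.595 and 3.10 CPM (log2 -0.92, SE 0.185, edgeR adjusted p = 0.0305). The target genes Cd44 and Myc rose by 0.36 and 0.35 (edgeR adjusted p = 0.0383 and 0.0494). Neither was called with siRNA 2, where Cd44 stood at 114% of its control mean CPM. Myc went the other way there, at 89.6% with all libraries below the controls. In all 4 genes, picked by their call in this contrast, the siRNA 1 libraries stood apart from the controls. Of all tested genes 7.94% did so above the controls and 8.65% below, and nothing is read from the 4. The Ryk call was lost without siRNA 1 replicate 3 (edgeR adjusted p = 0.0573). Reck was lost without any 1 of 4 libraries, at edgeR adjusted p-values up to 0.139, and Myc and Cd44 under 10 and 9 of 15 alternatives. The number called was 0 to 3 when 1 library was left out, with 0 in edgeR without siRNA 1 replicate 3, where 10 had an unadjusted p under 0.05.

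With siRNA 2, 13 of the 68 rose and 8 fell, beside 16.2% of all tested genes, with a median of 0.06 beside -0.01 over all tested genes. This median also turned, to -0.02, with the length trend removed. By size these were led by Apc2, a relative of the scaffold Apc, with 11.3, 11.9 and 15.5 CPM in controls and 25.2, 24.3 and 26.8 CPM with siRNA 2 (log2 0.97, SE 0.136, edgeR adjusted p = 0.000958). The target gene Sox9 (0.67) and the co-repressor gene Tle2 (0.53) rose (edgeR adjusted p = 0.0133 and 0.0086). Fzd4, the Frizzled that also binds Norrin, fell from 34.7, 34.2 and 41.0 CPM to 27.7, 20.8 and 21.6 CPM (log2 -0.66, SE 0.124, edgeR adjusted p = 0.00539). Tbl1xr1, a transcriptional cofactor gene (-0.47), and Csnk1g3, a kinase of LRP6 (-0.44), fell as well (edgeR adjusted p = 0.0108 and 0.00166). Ryk rose here too, by 0.34 (edgeR adjusted p = 0.00722). By role, 6 of 15 tested nuclear genes rose and 3 fell, and 1 of 20 cytoplasmic genes rose and 4 fell. Of 5 further Frizzleds 1 rose and 1 fell, while 2 of 6 further co-receptors, 2 of 4 inhibitors and 3 of 12 targets rose. Tcf7 and Apcdd1 count in 2 roles each. None of 7 Wnt ligands was called (edgeR, with 2 of them at an unadjusted p under 0.05). Of all tested genes 7.81% were higher and 8.4% lower, and nothing is read from the counts by role. Of the 6 largest, the calls of Sox9 and Tbl1xr1 were lost without siRNA 2 replicate 3 (edgeR adjusted p = 0.0616 and 0.0512), and the other 4 were kept under all 15 alternatives. The number called was 9 or 10 without control replicate 2, siRNA 2 replicate 1 or siRNA 2 replicate 2, and 5 without siRNA 2 replicate 3.

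**Figure D4:**
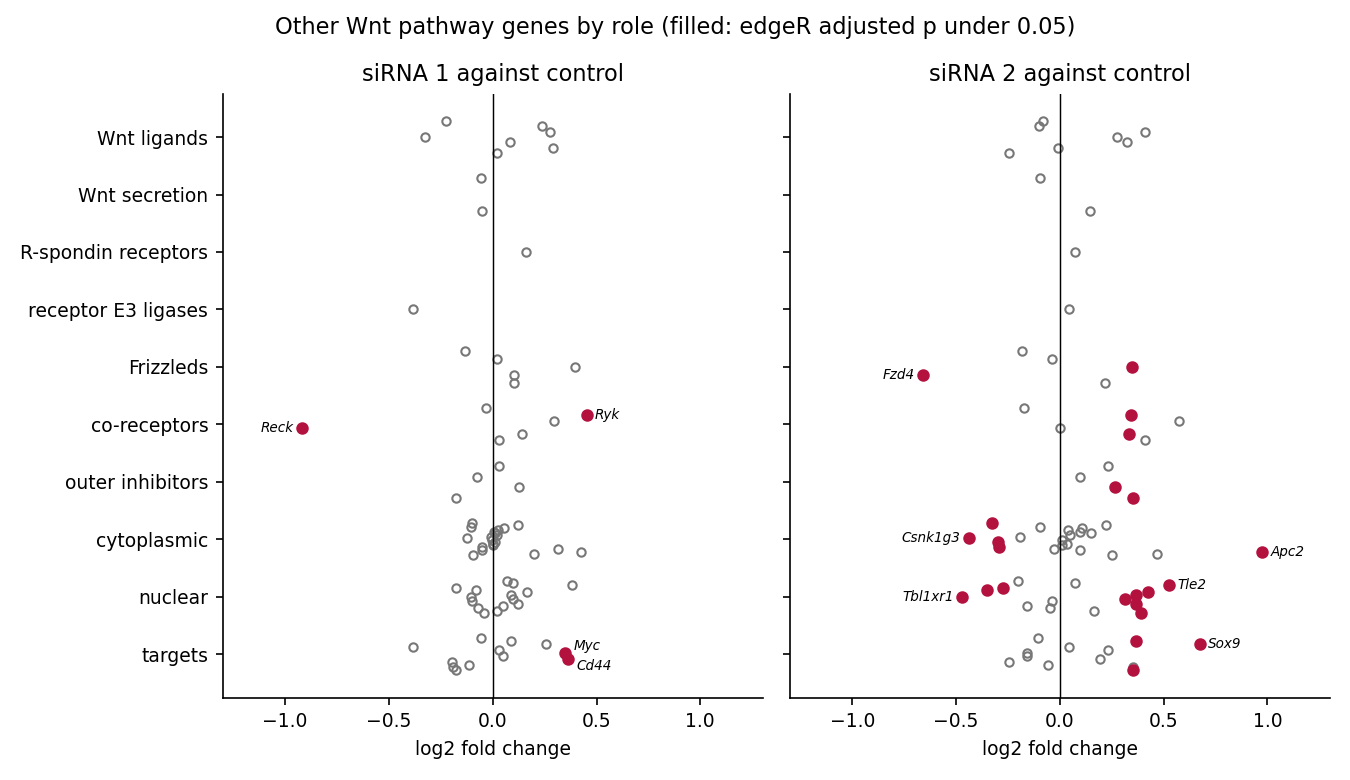
Each circle is 1 of the 68 other tested Wnt pathway genes, placed by its role on the vertical axis (a gene with 2 roles appears in both) and by its log2 fold change against control on the horizontal axis, with siRNA 1 on the left and siRNA 2 on the right. Filled circles passed edgeR's adjusted p under 0.05, which 4 genes did with siRNA 1 and 21 with siRNA 2, and the larger changes carry names.

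Over the average of both siRNAs, 5 of the 68 rose and 1 fell, beside 3.04% of all tested genes higher and 4.28% lower. The genes were Apc2 (0.70), Tle2 (0.45), Ryk (0.40), Fzd5 (0.37) and Cd44 (0.28), against Csnk1g3 (-0.28), with edgeR adjusted p-values of 0.00443 to 0.0338. Ryk was kept under all 15 alternatives. Apc2 and Csnk1g3 were lost without control replicate 2, Tle2 under 3 of them, and Fzd5 and Cd44 under 7 and 9. Between the siRNAs, 4 were higher and 4 lower with siRNA 1, beside 4.25% and 2.49% of all tested genes. Fzd4 (0.76, edgeR adjusted p = 0.00291) and Myc (0.51, edgeR adjusted p = 0.00216) were higher with siRNA 1, as were Btrc and Csnk1g3. Reck (-0.92), Apc2 (-0.55), the inhibitor gene Apcdd1 (-0.53) and the beta-catenin cofactor gene Bcl9 (-0.43) were lower. Fzd4, Myc and Apcdd1 kept this call under all 15 alternatives, and the other 5 lost it under 1 to 5 of them.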

How the data were processed

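RNA from 9 libraries of immortalized mouse podocytes was sequenced as pairs of 36 bp reads from poly(A)-selected, strand-specific libraries, per the labels. The tools named in the submitters' processing notes are CLC Genomics Workbench 23.02 and DESeq2, and the build is GRCm39. The sources used here do not give the annotation or whether counting used the strand. The authors deposited 1 table with total gene read counts, RPKM and TPM per library, and per the file headers also their scaled CPM, here called a signal. Comparisons by the authors are deposited as a log2 fold change, a linear fold and p-values, of which only the log2 values of Axin2 are printed.

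Here the counts were tested with edgeR 4.0.16 in R 4.3.3. Genes with few counts were removed by filterByExpr, which left 11800 of 25655 (9483 had no count at all). Libraries were scaled by TMM, and a robust quasi-likelihood model with the group as its only term was fitted to all 9 libraries, with Benjamini-Hochberg adjustment over all tested genes in each contrast. SEs were derived from the F value, and the biological coefficient of variation was 8.56%. TPM and RPKM were used only to order genes by level. The alternatives were DESeq2 size factors, no filter, DESeq2 1.42.0, a block for replicate number, an offset for a trend with transcript length (lowess span 0.3), both together, and leaving out each library. Depth ran from 9786270 to 13675426 gene counts per library, and no unique molecular identifiers are named.

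The members, the list of other Wnt genes and the rule for naming genes were chosen with earlier results of these data known. By that rule the 9 members were always named, with the 6 largest called changes of the other genes in each contrast, the most abundant gene of each role and the 5 genes most like Lgr4. The similarity used log2 CPM with a prior count of 2. Ryk with siRNA 2 and the genes beyond the 6 largest between the siRNAs were named after their values were seen, as were the R-spondins, Ndp, Lgr5, Lgr6 and Rnf43. The members' 36-base words were compared with GENCODE vM39 transcripts, and promoters come from RefSeq. Before use the test was run on simulated counts with known 1.5-fold and 2-fold changes, in which all genes had the same dispersion, unlike the data. Only the recovery of the 2-fold changes was required, so this check does not cover smaller changes. Some podocyte marker genes are not reported here. An adjusted p of the members between the siRNAs was planned but is not given, since that contrast is the difference of the changes that chose them.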

Additional observations from a re-analysis of the deposited data

Results flagged for a closer look

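Lgr4 was flagged because its response differed between the siRNAs, by 0.35 on the log2 scale (siRNA 1 minus siRNA 2). This difference was called by edgeR as reported and in 12 of 15 alternatives, which include a DESeq2 fit. The gene was chosen on the changes that make up this difference, so the call is not independent support.

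Fzd2 was flagged for the same reason, with a difference of -0.30, and the same limit holds. It lay below the controls with siRNA 1 and above them with siRNA 2, and its call was lost without any 1 of the 6 siRNA libraries.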

How the results depend on the processing

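The direction of Lgr4 in all 4 contrasts was the same under all 15 alternatives. Among members near 0, the difference between the siRNAs changed sign for Fzd7 (-0.0925 to 0.0172 over the fits without 1 library, with 0.00546 without siRNA 1 replicate 3) and for Lrp6 (0.00817 with the length offset and 0.00818 with the block and the offset), and none of these was called; the cause was not tested.

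Counts of genes called depended on the setting. With the length offset they were 367 with siRNA 1, 1436 in the average and 1225 between the siRNAs, and with the offset and the replicate block 466, 1756 and 1469, against 195, 864 and 795 as reported. Leaving out 1 library gave 36 to 234 with siRNA 1, 636 to 2608 with siRNA 2 (1913 as reported), 174 to 1478 in the average and 361 to 1335 between the siRNAs. Among the other Wnt genes the offset gave 12 in the average and 16 between the siRNAs, and the offset with the block 17 and 16, against 6 and 8. Leaving out 1 library gave 0 to 3 with siRNA 1 (4 as reported), 5 to 22 with siRNA 2 (21), 2 to 10 in the average and 3 to 15 between the siRNAs. A smaller group has fewer libraries by construction.

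The deviations of same-numbered libraries of different groups correlated from -0.14 to 0.43, and those of differently numbered ones from -0.43 to 0.38. Whether the replicate numbers pair the libraries cannot be told from these values. With the replicate block the counts of called genes were 226, 2295, 1092 and 927 in the order siRNA 1, siRNA 2, average and between the siRNAs.

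At this depth Axin2, with 1 to 12 counts a library, did not pass the filter on all 9 libraries, and the R-spondins had 0 or 1 count each over all of them. Outlying libraries were not tested for within groups of 3.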
